A study of Mus musculus with 8 samples.

Results

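The 9 genes described here encode the 4 Janus kinases of the mouse (Jak1, Jak2, Jak3 and Tyk2) and 5 of its signal transducers and activators of transcription (Stat2, Stat3, Stat5a, Stat5b and Stat6). They were taken from the gene count table by symbol, from a list chosen with earlier results of these data known. They make up 9 of the 45706 genes listed and 9 of the 17000 genes with enough counts to test, and other genes of the family are not analysed here. Counts came from translating ribosome affinity purification (TRAP), in which ribosomes carrying the GFP-tagged protein RpL10a are captured with anti-GFP antibodies. The captured RNA is the immunoprecipitate (IP, 4 libraries), and the RNA of the whole homogenate is the input (4 libraries). Both fractions came from random-fed mice that carried Mfffl/fl together with AgRP-IRES-Cretg/wt and the tag allele RpL10a-GFPfl/wt, aged 11 to 12 weeks, with 3 mice of mixed sex pooled for each replicate. By design the same Cre, expressed from an Agrp allele, deletes Mff (mitochondrial fission factor) and switches on the ribosome tag. Tagged cells are therefore meant to be the deleted cells as well, which was not checked here. Every library comes from mice of this genotype. IP against input compares ribosome-bound RNA of AgRP neurons with RNA of the whole homogenate. That homogenate holds these neurons and the hypothalamic tissue around them. Cell type, ribosome binding and the deletion differ together between the fractions and cannot be told apart. The comparison does not test the deletion, and mice with intact Mff are not analysed here.

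JAK kinases are tyrosine kinases bound to the inner side of cytokine receptors that have no kinase of their own. When a ligand brings receptor chains together, the JAKs phosphorylate each other, the receptor and the STAT proteins that dock on it. Phosphorylated STATs pair, enter the nucleus and switch on target genes, among them the SOCS genes whose products shut the pathway down. In AgRP neurons of the arcuate nucleus, the hunger-promoting neurons of the hypothalamus, the pathway carries signals from the leptin receptor and the growth hormone receptor.

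Libraries held 39.9 to 74.6 M estimated counts (M, mega), and levels are given as CPM, the counts of a gene for each 1 M counts of its library after scaling. Agrp, the defining transcript of these neurons, averaged 843 ± 170 CPM in IP and 3.35 ± 0.74 CPM in input (SD, n = 4 each), and all 10 AgRP neuron markers were higher in IP. Mff had 64.0, 71.2, 68.6 and 69.7 CPM in IP, against 129, 122, 132 and 112 CPM in input. Counts of the whole gene do not measure loss of the deleted exons, and this difference checks nothing about the deletion. IP replicate 3 stood apart from the other IP libraries. Spearman correlations of counts between replicates were 0.961 to 0.975 within IP and 0.993 to 0.994 within input, and the chi-square per degree of freedom was 222.5 to 329.1 for pairs that held IP replicate 3, against 47.1 to 60.2 for the other IP pairs. Member results that turn on that library are given with and without it.

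Stat3 was the member that separated the fractions most. It stood 3.58-fold higher in IP than in input, and every IP library lay above every input library. Stat5a was 2.48-fold higher, from much lower counts and with overlapping libraries. The 4 kinase genes and Stat2, Stat5b and Stat6 did not pass the test. In all, 2 of 9 members were higher in IP and 0 were lower at an adjusted p under 0.05 (edgeR's quasi-likelihood test, Benjamini-Hochberg adjustment over 17000 genes). Over all tested genes, 24.5% were higher, 20.9% were lower and 45.4% were called in either direction, so the members' share of higher calls was close to that of any gene. At an unadjusted p under 0.05 the members' count was also 2. The median log2 fold change was -0.15 over the members and -0.01 over all tested genes. In tissue RNA, fewer cells of a type and less RNA per cell cannot be told apart, and this holds for each input level given here.

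**Figure D1:**
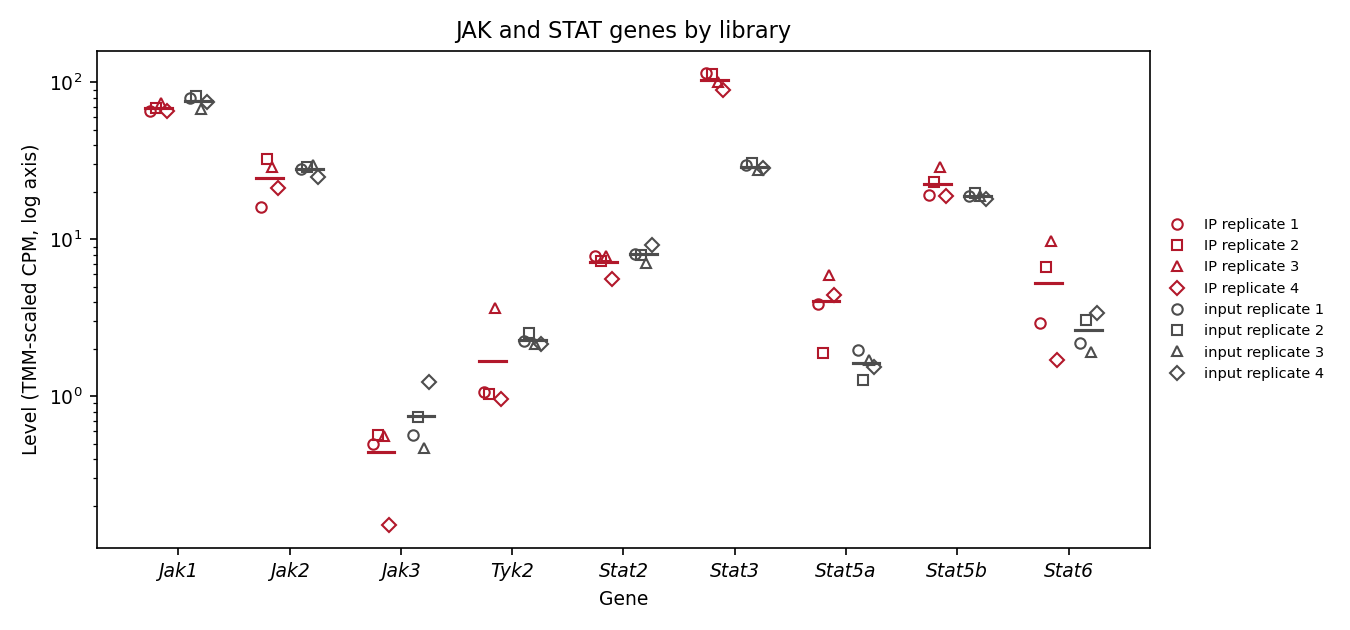
Levels of the 9 genes in each library, in CPM on a log axis, 1 symbol per replicate, with IP libraries to the left of input libraries and a bar at the mean of each group of 4. Stat3 lies at 88.8 to 114 CPM in IP and at 27.7 to 30.5 CPM in input with no overlap, while the other 8 genes overlap between the fractions.

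Among the kinases, Jak1 had the highest level per length in both fractions. Jak1 serves the gp130 receptors of the interleukin 6 family as well as interferon and common gamma chain receptors. It had 65.4, 68.9, 73.4 and 65.3 CPM in IP, against 79.4, 81.4, 67.8 and 74.5 CPM in input. The ranges overlapped through IP replicates 2 and 3 and input replicate 3. On GRCm38 the kinase genes lie at chr4:101152367-101265282 on the minus strand (Jak1), chr19:29251828-29313080 on the plus strand (Jak2), chr8:71676296-71690575 on the plus strand (Jak3) and chr9:21104068-21131243 on the minus strand (Tyk2). The log2 difference of Jak1, IP minus input, was -0.15 ± 0.08 (SE, edgeR, adjusted p = 0.148), with a 95% interval of -0.33 to 0.02.

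Jak2 is the kinase of the leptin, growth hormone, prolactin and erythropoietin receptors. Its IP libraries had 16.0, 32.5, 28.8 and 21.1 CPM, against 28.2, 28.9, 29.8 and 25.0 CPM in input. The IP libraries spread widely on both sides of a narrow input range, with a coefficient of variation of 30.1% in IP and 7.42% in input. The log2 difference was -0.19 ± 0.19 (SE, edgeR, adjusted p = 0.458), with a 95% interval of -0.60 to 0.23, so an IP level of 0.658 times that of input lies within the error.

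Tyk2, a kinase of type I interferon, interleukin 10 and interleukin 12 family receptors, was low in both fractions and had 1 library far from the rest. Its levels were 1.06, 1.04, 3.66 and 0.955 CPM in IP, and 2.26, 2.55, 2.17 and 2.14 CPM in input. IP replicates 1, 2 and 4 lay below every input library, and IP replicate 3 lay above every one. These IP levels rest on 60, 55, 254 and 38 counts, and 554 of 6865 exon bases of Tyk2 lie opposite the antisense gene 1700084C06Rik. The log2 difference over the 8 libraries was -0.43 ± 0.48 (SE, edgeR, adjusted p = 0.493), and it was -1.16 ± 0.32 without IP replicate 3 (SE, edgeR, adjusted p = 0.0118), a call of lower in IP. In the same library the summed level of 9 endothelial and mural markers was 34.7 CPM, against 11.7 to 15.8 CPM in the other IP libraries and 35.9 to 43.6 CPM in input, and its sums of astrocyte and oligodendrocyte markers were also the highest of the 4. The endothelial and mural sum was carried by Rgs5 at 19.4, Flt1 at 7.39 and Slco1a4 at 5.60 CPM, while Kdr at 0.0866 and Kcnj8 at 0.115 CPM were lowest in that library among the IP libraries. Their part in the Tyk2 level was not tested.

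Jak3, which pairs with the common gamma chain encoded by Il2rg and is known mainly from lymphocytes, was near the detection limit. It had 0.495, 0.567, 0.563 and 0.151 CPM in IP, from 28, 30, 39 and 6 counts, against 0.564, 0.742, 0.466 and 1.23 CPM in input. Of its 31-base words 9.38% also occur in Insl3, which had no count in any IP library, allowing up to 0.0463 to 0.0752 CPM per library (3 counts, counting error only). The fractions overlapped, and the 95% interval of the log2 difference ran from -2.10 to 0.60 around -0.75 (edgeR, adjusted p = 0.350), so neither direction was detectable at this depth. Lymphocyte markers had too few counts to test. Ms4a1 had 0, 0, 0.260 and 0.453 CPM in IP and 0 to 0.116 CPM in input, and Cd3e had no count in IP and 0.0364 to 0.135 CPM in input. Microglia, another source of the common gamma chain in brain, had 11 of 13 markers lower in IP, with sums of 26.6 to 32.7 CPM against 78.2 to 93.8 CPM in input.

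Stat3 is the STAT of the leptin receptor and of gp130 receptors, and it is known to carry leptin signals in AgRP neurons. Its levels were 114, 114, 99.9 and 88.8 CPM in IP, against 29.8, 30.5, 27.7 and 28.4 CPM in input. Every IP library lay above every input library, and IP replicate 3 was not apart from the others. The log2 difference was 1.84 ± 0.09 (SE, edgeR, adjusted p = 7.29e-08), a 3.58-fold difference with a 95% interval of 3.10 to 4.13. The difference was larger than the spread between replicates in either fraction. Of the 17000 tested genes, 446 had a larger log2 difference, and 24.1% had all 4 IP libraries above all 4 input libraries, with 24% the other way round. Stat3 was the 1 member of 9 with such a separation. By CPM, Stat3 stood at the 91.1 percentile of tested genes in IP and at the 72.8 percentile in input. Astrocytes also make Stat3, and all 9 astrocyte markers were lower in IP, with sums of 812 to 1113 CPM against 2713 to 3388 CPM in input.

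The STAT3 gene sits beside the STAT5 genes on chromosome 11, and the arrangement bears on how their counts can be read. In the assembly GRCm38, Stat3 (ENSMUSG00000004040) lies at chr11:100885098-100939540 on the minus strand, Stat5a (ENSMUSG00000004043) at chr11:100859351-100885169 on the plus strand and Stat5b (ENSMUSG00000020919) at chr11:100780731-100850724 on the minus strand. Stat3 and Stat5a meet tail to tail and share 72 exon bases on opposite strands, and no strand setting is stated for the counting. Those bases are a small part of the 9527 exon bases of Stat3 and the 7133 exon bases of Stat5a. Stat5a and Stat5b are near copies of each other. Of the 31-base words in Stat5a transcripts, 21.7% also occur in Stat5b, and of those in Stat5b 16.1% occur in Stat5a, against 0.699% of those in Stat3 that occur in any other gene. The longest identical stretch of coding sequence runs for 324 bases, across exons 7 to 9 of Stat5a-201 (chr11:100874023-100874983) and exons 6 to 8 of Stat5b-202 (chr11:100797741-100798701). The start of that stretch is shown because a read that falls inside it cannot be assigned to either gene. Each line holds 120 coding bases, the 40 before the identical stretch and its opening 80, and the capital letter marks the only position at which the lines differ.
Stat5a: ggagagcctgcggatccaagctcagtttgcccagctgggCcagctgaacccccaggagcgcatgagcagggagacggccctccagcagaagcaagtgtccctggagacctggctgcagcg
Stat5b: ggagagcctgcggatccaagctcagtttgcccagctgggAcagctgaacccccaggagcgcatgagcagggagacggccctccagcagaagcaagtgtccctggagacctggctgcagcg
The sequences were read from transcripts of GENCODE M21 on GRCm38.

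Both STAT5 proteins act downstream of the growth hormone, prolactin and several interleukin receptors. Stat5a had 3.87, 1.89, 5.94 and 4.40 CPM in IP, against 1.98, 1.27, 1.70 and 1.54 CPM in input. IP replicates 1, 3 and 4 lay above every input library, and IP replicate 2 lay below input replicate 1. The log2 difference was 1.31 ± 0.37 (SE, edgeR, adjusted p = 0.0131), with a 95% interval of 0.50 to 2.13. Stat5b, the member of the pair with the higher level per length, had 19.1, 23.3, 28.7 and 18.9 CPM in IP and 18.8, 19.7, 18.9 and 18.1 CPM in input. Its log2 difference was 0.25 ± 0.14 (SE, edgeR, adjusted p = 0.177), and its 95% interval of -0.06 to 0.57 lies below that of Stat3. IP replicate 3 had the highest level of both STAT5 genes. Since the split of shared reads is a model's, the counts of both genes were also added. Their sum was 22.9, 25.2, 34.6 and 23.3 CPM in IP, against 20.8, 20.98, 20.6 and 19.6 CPM in input. All 4 IP libraries then lay above all 4 input libraries, with a log2 difference of 0.37 ± 0.14 (SE, edgeR, adjusted p = 0.0475). The sum was highest in IP replicate 3 and was not fitted without that library, so this call near the threshold may turn on it. Without IP replicate 3, the log2 difference of Stat5b alone was 0.11 (edgeR, adjusted p = 0.415). Stat5a made up 16.9%, 7.49%, 17.2% and 18.9% of the STAT5 counts in IP, and 9.51%, 6.02%, 8.22% and 7.77% in input.

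Stat6 is the STAT of the interleukin 4 and interleukin 13 receptors. Its coefficient of variation between IP libraries, 69.8%, was the highest of the STAT genes, with 2.92, 6.69, 9.80 and 1.71 CPM in IP, against 2.18, 3.05, 1.91 and 3.38 CPM in input. IP replicates 2 and 3 lay above every input library and IP replicate 4 below every one. The log2 difference was 1.01 ± 0.48 (SE, edgeR, adjusted p = 0.110), with a 95% interval of -0.05 to 2.06. It was 0.53 without IP replicate 3, and 1.30 without IP replicate 4 (edgeR, adjusted p = 0.0235), a call of higher in IP. Stat6 (chr10:127642986-127660957, plus strand) and Stat2 (chr10:128270559-128292849, plus strand) lie on 1 chromosome. Stat6 shares 40 exon bases with Nab2 on the opposite strand, and Nab2 was lower in IP by a log2 difference of -0.73 ± 0.25 (SE, edgeR, adjusted p = 0.0328). Stat2, which joins Irf9 in the complex that reads type I interferon signals, had 7.87, 7.24, 7.83 and 5.58 CPM in IP and 8.03, 7.94, 7.03 and 9.22 CPM in input. The fractions overlapped, with IP replicate 4 lowest and input replicate 4 highest. Its log2 difference was -0.17 ± 0.18 (SE, edgeR, adjusted p = 0.455), with a 95% interval of -0.56 to 0.22.

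**Figure D2:**
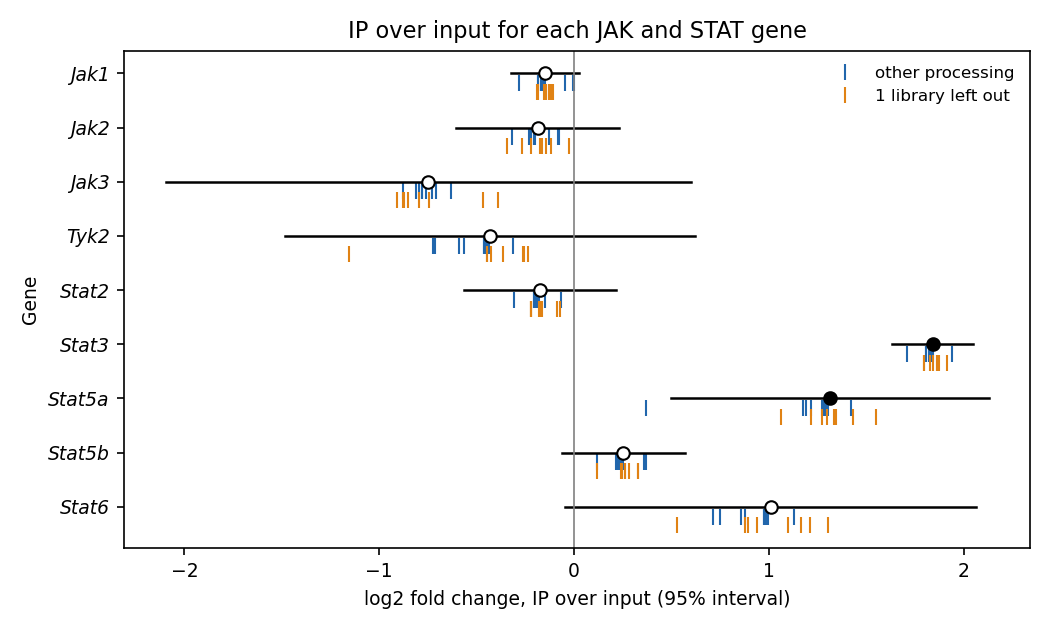
Log2 difference, IP minus input, of each of the 9 genes (circle, filled where called) with its 95% interval (line), above ticks for the value under each other processing (blue) and with 1 library left out (orange). The intervals of Stat3 (1.63 to 2.05) and Stat5a (0.50 to 2.13) lie above 0 and those of the other 7 genes cross it. The summed STAT5 counts are drawn as a blue tick at 0.37 for both Stat5a and Stat5b.

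Divided by transcript length, levels can be set beside each other between genes. In IP, Stat3 had the highest level at 17.2 ± 2.0 CPM per kb, followed by Jak1 at 13.9 ± 0.77, Jak2 at 4.89 ± 1.5 and Stat5b at 4.31 ± 0.88 CPM per kb (SD, n = 4). Stat2 at 1.62 ± 0.24, Stat6 at 1.40 ± 0.98, Stat5a at 1.04 ± 0.43, Tyk2 at 0.348 ± 0.27 and Jak3 at 0.110 ± 0.049 CPM per kb came after them. Neighbours whose means differed by less than the sum of their SDs were Jak2 and Stat5b, Stat2 and Stat6, Stat6 and Stat5a, Stat5a and Tyk2, and Tyk2 and Jak3. In input, Jak1 was highest at 15.4 ± 1.2 CPM per kb, and Stat3 came after Jak2, at 4.81 ± 0.21 against 5.57 ± 0.41 CPM per kb. Only Tyk2 and Stat5a did not differ by more than their summed SDs there.

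Sums over each family give the makeup of its pool, as a description with no test. The 5 STAT genes summed to 25.6 ± 3.0 CPM per kb in IP and 11.4 ± 0.44 CPM per kb in input, and the 4 JAK genes to 19.3 ± 2.3 CPM per kb in IP and 21.7 ± 1.3 CPM per kb in input (SD, n = 4 each). Stat3 made up 67.5% ± 5.8 of the STAT sum in IP and 42.3% ± 1.1 in input. Stat5b made up 16.8% ± 2.3 in IP and 31.9% ± 1.5 in input, and Stat2 6.32% ± 0.40 in IP and 16.1% ± 1.4 in input. Jak1 made up 72.7% ± 5.4 of the JAK sum in IP and 71.2% ± 2.1 in input.

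**Figure D3:**
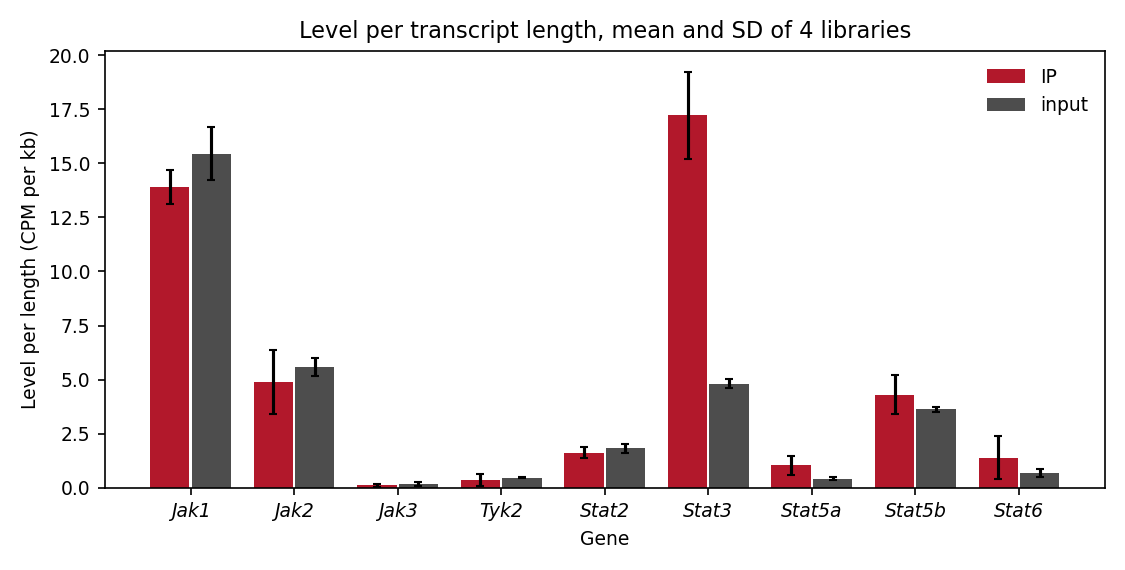
Levels per length of the 9 genes in IP and input, in CPM per kb of the longest protein-coding transcript, with bars for means and lines for the SD of 4 libraries. Stat3 leads in IP at 17.2 CPM per kb, and Jak1 leads in input at 15.4 CPM per kb.

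Ratios of members within a library do not depend on how libraries are scaled, and 4 were compared. The log2 ratio of Stat3 to Stat5b was 2.22 ± 0.32 in IP and 0.62 ± 0.05 in input (SD, n = 4 each), a difference of 1.60 with no overlap (exact permutation test, two-sided, p = 0.0286, adjusted p = 0.114). With 70 arrangements of 4 against 4, 0.0286 is the smallest p this test can give, and it did not pass after adjustment over the 4 ratios. The log2 ratio of Stat5b to Stat5a was 2.56 ± 0.70 in IP and 3.54 ± 0.29 in input (exact permutation p = 0.114, adjusted p = 0.229). That of Tyk2 to Jak1 was -5.56 ± 0.84 in IP and -5.03 ± 0.08 in input (exact permutation p = 0.171, adjusted p = 0.229). That of Jak2 to Jak1 was -1.52 ± 0.40 in IP and -1.43 ± 0.17 in input (exact permutation p = 0.743, adjusted p = 0.743). Without IP replicate 1 the sign of the Jak2 to Jak1 difference turned, to 0.081.

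The receptors that use these kinases and STATs were read from a list of 17 type I cytokine receptor genes, of which 15 had enough counts to test. Of these, 6 were higher in IP, 3 were lower and 6 did not pass, with a median log2 difference of 0.44. That median was -0.42 with no filter on low counts, -0.095 without IP replicate 3 and 0.013 without input replicate 4. Ghr, the growth hormone receptor that signals through Jak2 and Stat5, averaged 167 ± 40 CPM in IP and 13.4 ± 0.65 CPM in input (log2 difference 3.64 ± 0.15, SE, edgeR, adjusted p = 2.1e-08). Lepr, the leptin receptor that signals through Jak2 and Stat3, averaged 11.0 ± 3.3 CPM in IP and 2.22 ± 0.33 CPM in input (2.30 ± 0.24, edgeR, adjusted p = 1.61e-05). Il2rg, the partner chain of Jak3, averaged 6.37 ± 1.5 CPM in IP and 0.125 ± 0.068 CPM in input (5.62 ± 0.47, edgeR, adjusted p = 2.7e-06). It had enough counts for the test through its IP libraries alone. Prlr, the prolactin receptor, was lower in IP, at 10.8 ± 1.3 CPM against 34.8 ± 1.9 CPM in input, and Lifr, the leukaemia inhibitory factor receptor, averaged 18.9 ± 4.2 CPM in IP and 29.8 ± 3.1 CPM in input. The other receptor that was lower, Csf2rb, a receptor chain of myeloid cells, averaged 0.0424 ± 0.069 CPM in IP and 0.756 ± 0.22 CPM in input, and it was tested through its input libraries alone.

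Of 9 interferon and interleukin 10 family receptor genes, 6 were tested, with 2 higher, 1 lower and 3 not past the test, and a median log2 difference of 0.64. Ifnar2, a type I interferon receptor chain, averaged 14.0 ± 1.9 CPM in IP and 7.16 ± 0.79 CPM in input (log2 difference 0.96 ± 0.16, SE, edgeR, adjusted p = 0.000436). The other calls were near the threshold, with log2 differences of 1.19 ± 0.43 for Il10rb (edgeR, adjusted p = 0.0409) and -2.12 ± 0.79 for Il10ra (edgeR, adjusted p = 0.0461). The Il10rb call was lost under 10 of 18 alternative settings, and the Il10ra call under 10 of the 17 in which it was tested.

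Among 18 genes for negative regulators of the pathway, 7 were higher in IP, 1 was lower and 10 did not pass, with a median log2 difference of 0.08. The 3 with the smallest p were SOCS family genes, which are themselves targets of STAT factors. Cish averaged 20.1 ± 4.2 CPM in IP and 4.06 ± 0.61 CPM in input, with a log2 difference of 2.31 ± 0.19 (SE, edgeR, adjusted p = 2.32e-06). Socs2 averaged 35.8 ± 8.1 CPM in IP and 8.21 ± 1.2 CPM in input, with a log2 difference of 2.12 ± 0.18 (SE, edgeR, adjusted p = 3.17e-06). Cish and Socs2 are known chiefly as Stat5 targets that damp growth hormone and prolactin signals. Socs3, the Stat3 target that damps leptin signals, averaged 4.34 ± 1.7 CPM in IP and 0.810 ± 0.32 CPM in input, with a log2 difference of 2.41 ± 0.42 (SE, edgeR, adjusted p = 0.000637). Socs5 was the gene that was lower, by a log2 difference of -0.29 ± 0.10 (SE, edgeR, adjusted p = 0.0339), a call that was lost under 9 of 18 alternative settings.

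STAT dimers are known to bind the palindrome TTCNNNGAA, which was searched in promoter windows from 250 bases before to 50 bases after the transcription start. The motif reads the same on both strands, so each match was counted once. It occurred in 2726 of 32851 windows of RefSeq genes on GRCm38.p6 (8.3%), in 0 of 11 windows of the 9 members, and in 12 of 95 windows of the pathway lists (12.6%), where 70 of 89 genes had a window. A match is a description of the letters and shows no binding, and the absence of one says only that these letters are not in this window. Stretches of the Socs3 promoter (chr11:117969467-117969566, minus strand), the Cish promoter (chr9:107296654-107296683, plus strand) and the Stat3 promoter (chr11:100939541-100939640, minus strand) are shown because the first pair belong to feedback genes that were higher in IP and hold the motif, and the last is that of the member with the largest difference. Other listed genes with the motif were Ifnar2, which was higher in IP, Prlr, Gab1 and Gfap, which were lower, Ifnar1, Ifit2, Irf1 and Bst2, which did not pass, and Il7r, which was not tested. Capitals mark the matches, and the Stat3 stretch holds none.
Socs3: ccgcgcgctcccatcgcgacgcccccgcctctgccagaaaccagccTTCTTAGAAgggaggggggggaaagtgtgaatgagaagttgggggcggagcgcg
Cish: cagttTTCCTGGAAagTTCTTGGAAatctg
Stat3: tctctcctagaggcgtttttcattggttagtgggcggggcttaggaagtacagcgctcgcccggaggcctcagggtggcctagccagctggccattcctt
The Socs3 match begins 154 bases before the start, and the Cish matches begin at bases 1 and 12 after it.

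Of 13 genes for adaptors and STAT cofactors, 5 were higher in IP, 4 were lower and 4 did not pass, with a median log2 difference of 0.26. Ndufa13, a subunit of mitochondrial complex I also described as a Stat3 partner, averaged 253 ± 22 CPM in IP and 149 ± 8.3 CPM in input. Shc1, an adaptor of phosphorylated receptors, averaged 16.9 ± 1.8 CPM in IP and 5.88 ± 1.0 CPM in input. Irf9, the partner of Stat2, averaged 11.3 ± 3.2 CPM in IP and 3.65 ± 0.50 CPM in input (log2 difference 1.63 ± 0.23, SE, edgeR, adjusted p = 0.000165), while Stat2 itself did not pass. Crebbp, a histone acetyltransferase that STATs recruit, was lower by a log2 difference of -0.39 ± 0.08 (SE), Gab1, a docking adaptor, by -0.82 ± 0.17 and Ncoa1, a coactivator, by -0.40 ± 0.09. With GC and length offsets the Ncoa1 difference was -0.22 and its call was lost (edgeR, adjusted p = 0.0586). Stam was lower by -0.31 ± 0.09 (SE, edgeR, adjusted p = 0.0143), and with those offsets its difference was 0.065 (edgeR, adjusted p = 0.626). Sh2b1 and Stam2 were also higher, by 0.51 ± 0.10 and 0.31 ± 0.09 (SE). The Stam2 call was lost in several settings, among them upper quartile scaling (edgeR, adjusted p = 0.1625). Over 18 alternatives, 4 to 7 genes of this list were higher and 2 to 4 lower.

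Known Stat3 and Stat5 target genes outside the SOCS family went both ways. Of 17 listed 16 were tested, with 6 higher in IP, 4 lower and 6 not past the test, and a median log2 difference of 0.00. The SOCS family genes are left out of this list and counted with the negative regulators. There Cish, Socs1, Socs2, Socs3 and Socs7 were higher in IP, Socs5 was lower, and Socs4 and Socs6 did not pass. Serpina3n, a secreted protease inhibitor, averaged 562 ± 78 CPM in IP and 12.8 ± 0.57 CPM in input (5.46 ± 0.11, SE, edgeR, adjusted p = 2.39e-10). Myc averaged 10.9 ± 1.1 CPM in IP and 3.49 ± 0.18 CPM in input, and Bcl2l1, a survival gene, 52.6 ± 6.6 CPM in IP and 31.9 ± 1.6 CPM in input. Vegfa was lower by a log2 difference of -1.18 ± 0.14 (SE), Igf1 by -1.41 ± 0.17 and Gfap by -0.99 ± 0.13, and Gfap is also on the astrocyte list. Hif1a was lower by -0.26 ± 0.08 (SE, edgeR, adjusted p = 0.0207). With GC and length offsets its difference was -0.034 and its call was lost (edgeR, adjusted p = 0.764). Of 15 interferon-induced genes, the usual readout of Stat2 with Irf9, 13 were tested, with 1 higher, 3 lower and 9 not past the test, and a median log2 difference of -0.71. With a filter of 1 CPM, which left 8 of these genes, the median was 0.096. Rsad2 was the one that was higher, at 4.27 ± 1.2 CPM in IP against 0.604 ± 0.093 CPM in input. Ifit3 averaged 1.07 ± 0.35 CPM in IP and 4.32 ± 0.32 CPM in input, and Ifi27 4.30 ± 1.2 CPM in IP and 10.3 ± 1.2 CPM in input. Gbp3 was also lower, at 0.285 ± 0.18 CPM in IP against 1.25 ± 0.30 CPM in input, a call that was lost without input replicate 3 (edgeR, adjusted p = 0.0563), without input replicate 4 (0.0532) and with offsets and a replicate block (0.0516). The shares in these lists stand beside 24.5% higher and 20.9% lower over all tested genes, and 11 of 13 microglial, 9 of 9 astrocyte and 8 of 8 oligodendrocyte markers were lower in IP. Their part in these counts was not tested.

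**Figure D4:**
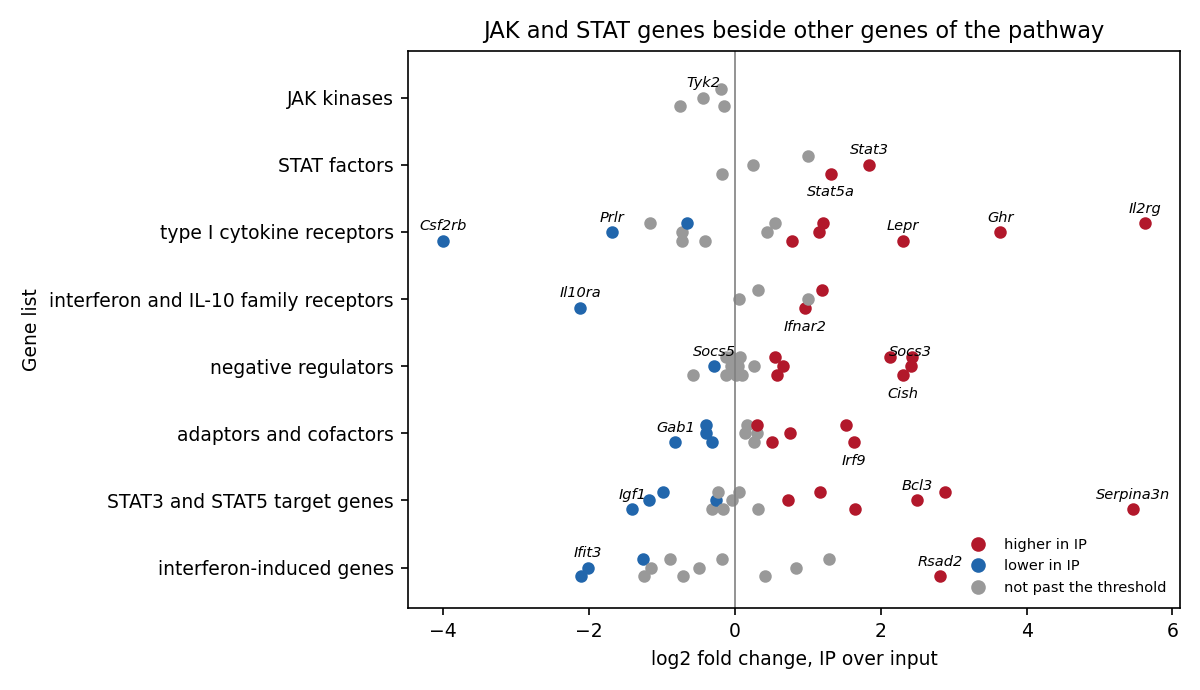
Log2 difference, IP minus input, of each tested gene of the JAK and STAT families and of the 6 pathway lists, 1 row per list and 1 point per gene, in red where higher in IP, blue where lower and grey where the test was not passed, with some genes named. The 4 kinase genes are grey and lie below 0, while the receptor, regulator, cofactor and target lists hold points of all 3 colours.

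The genes whose levels over the 8 libraries were most like those of Stat3 were Usp27x, Chrac1 and Vat1, out of 9930 candidates with a mean of at least 5 CPM. Likeness was the Euclidean distance between log2 CPM profiles, each centred on its own mean, and it was 0.267, 0.290 and 0.302 for these genes. Usp27x averaged 136 ± 11 CPM in IP and 38.6 ± 2.4 CPM in input. For Stat5a the nearest were Brca2 at 0.738, Gpr108 at 0.768 and Tmem251 at 0.776, distances well above those found for Stat3. The distance is a description of these 8 libraries and was not tested.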

How the data were processed

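The authors' deposited table holds raw estimated counts per gene for 8 libraries. Salmon 0.14.1 and the build GRCm38.p6 are named in the submitters' processing notes. The authors' annotation and strand option are not given in these sources. Groups and replicate numbers came from the sample titles. The labels describe each replicate as a separate pool of mice. No pair of libraries agreed within sampling noise, so n = 4 per fraction.

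The counts were rounded, filtered with filterByExpr at a minimum count of 10, scaled by TMM and compared by the quasi-likelihood test of edgeR 4.0.16 (R 4.3.3). Fold changes are IP over input, SE is the log2 difference over the square root of F, and intervals use the t distribution with the fit's degrees of freedom. P-values were adjusted over all 17000 tested genes (Benjamini-Hochberg, threshold 0.05). Gene models were those of GENCODE M21, in which 98.8% of identifiers were found, and CPM per kb used the longest protein-coding transcript. Within-library ratios used a prior count of 2. The fit was run on simulated counts in which few genes changed, equally up and down. That does not test the scaling where as many genes differ as in these data.

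Genes named besides the members were those of each pathway list with the smallest p in each direction, up to 3, every called gene where a count was small, and for each called member the 3 nearest profiles. The members and lists were chosen with earlier results of these data known. Alternatives were RLE, upper quartile and total scaling, a filter of 1 CPM and none, DESeq2 1.42.0, limma-voom with limma 3.58.1, GC and length offsets, a replicate block, leaving out each library, and other prior counts of the ratios.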

Additional observations from a re-analysis of the deposited data

Results flagged for a closer look

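Among 26 groups of 4 values examined for a library far from the others, 3 held one, all in IP. The nominal rate of about 5% of groups assumes normally distributed values. Over all tested genes, each IP library was far above its fraction in 1.48% to 2.46% of genes and far below in 0.31% to 0.71%. For each input library these shares were 0.58% to 0.92% and 0.45% to 0.70%. These shares are for a single library in a single direction, while the 3 were counted by group, so they cannot be set directly beside each other. The count of 3 is not read as an excess. Tyk2 stood at 3.66 CPM in IP replicate 3, against 0.955 to 1.06 CPM in the other IP libraries, a gap of 0.961 of the group's range. The log2 ratio of Tyk2 to Jak1 in the same library was -4.31, against -6.04 to -5.90 in the other IP libraries, and it rests on the same Tyk2 counts. The log2 ratio of Stat5b to Stat5a was 3.60 in IP replicate 2, against 2.09 to 2.29 in the other IP libraries.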

How the results depend on the processing

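Stat3 and Stat5a remained higher in IP under each alternative and with each library left out, with log2 differences of 1.80 to 1.91 for Stat3 and 1.06 to 1.55 for Stat5a when 1 library was left out. Upper quartile scaling gave Jak1 a log2 difference of -0.28 (edgeR, adjusted p = 0.0128), so that 1 member was lower. It also moved the median of all genes by -0.13, and made 43.3% of all calls higher, against 54.1% with TMM. Relative to the median of all genes in each setting, Jak1 was at -0.14 under upper quartile, TMM, RLE and total scaling and with DESeq2. It was at -0.20 with the filter of 1 CPM, -0.052 with limma-voom and -0.060 with a replicate block. Leaving out 1 library gave -0.18 to -0.093. With GC and length offsets Jak1 was at -0.018, and its own difference was -0.0041. With offsets and block it was at 0.055. With no filter it was at 0.10, where the median of all genes was -0.26 and Jak1 itself -0.16. Scaling by totals moved the median by 0.10 and changed no member's call. The summed Stat5a and Stat5b counts gave 0.37 (edgeR, adjusted p = 0.0475), against 0.25 for Stat5b alone, which was not called. The sum was fitted under the main settings only. Leaving out 1 library gave -1.16 to -0.24 for Tyk2, 0.53 to 1.30 for Stat6, -0.34 to -0.025 for Jak2, -0.22 to -0.071 for Stat2, 0.11 to 0.33 for Stat5b, 2 to 3 members higher and 0 to 1 lower. For the differences in log2 ratios it gave -1.32 to -0.82 for Stat5b to Stat5a, -0.95 to -0.37 for Tyk2 to Jak1 and -0.23 to 0.081 for Jak2 to Jak1. The call of Tyk2 turned on IP replicate 3 and that of Stat6 on IP replicate 4, and the cause was not tested. The Tyk2 to Jak1 ratio without IP replicate 3 and the Stat5b to Stat5a ratio without IP replicate 2 each gave an exact permutation p of 0.0286 and an adjusted p of 0.0571, so no ratio passed. A replicate block changed no member's call, with 1.83 for Stat3 and 1.22 for Stat5a, and gave 3878 genes higher and 3714 lower, against 4171 and 3545 without it. Same-numbered IP and input libraries correlated at 0.048 to 0.084 in their deviations, against -0.038 to -0.0016 for libraries of different numbers. Each library correlated best with its own number. These small values do not settle whether the numbers are pairs, and the labels do not say so. The block is therefore given as an alternative. Jak3 had too few counts for a value under the filter of 1 CPM, and its depth, like that of Tyk2, limits what can be seen. The list medians, over 18 alternatives, ran from -0.42 to 0.55 for type I cytokine receptors, 0.043 to 0.94 for interferon and interleukin 10 family receptors, -0.052 to 0.31 for negative regulators, 0.12 to 0.36 for adaptors, -0.13 to 0.11 for target genes and -0.84 to 0.096 for interferon-induced genes.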

Other observations

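Other genes besides Tyk2 were high in IP replicate 3, and those given here were chosen after their values were seen. Ptpn6, a phosphatase that removes phosphate from JAKs and is known from blood cells, had 3.53 CPM in that library and 0.0945 to 0.212 CPM in the other IP libraries. Over all tested genes, IP replicate 3 was far above the other IP libraries in 2.46% of genes, against 1.48% to 1.91% for each of the other IP libraries.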
